A study of Mus musculus with 9 samples.

Results

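A set of 10 plasma membrane amino acid transporter genes was described across 9 cultures of mouse articular chondrocytes, the cells of joint cartilage. The 10 genes, out of 55471 in the files, were given as a list of symbols by a rule that used no measured value, although earlier results of these data were known when the list was drawn up: *Slc7a5*, *Slc7a11*, *Slc3a2*, *Slc7a1*, *Slc7a3*, *Slc1a4*, *Slc1a5*, *Slc38a1*, *Slc38a2* and *Slc6a9*. All 10 were found in the files, and all 10 passed the filter on low counts. The study set out to find what 5-ASA (5-aminosalicylic acid) acts on downstream of OSCAR, a collagen receptor. It compared 3 groups of 3 cultures: Control, Ad-OSCAR (infected with an adenovirus that expresses OSCAR) and Ad-OSCAR + 5-ASA (infected in the same way and then given 5-ASA). Primary cells of every group came from femoral condyles and tibial plateaus of wild-type mice on postnatal day 5. According to the methods, Control cells received an adenovirus without OSCAR, all plates were coated with a collagen peptide that binds OSCAR, and 5-ASA was given at 10 µM. The labels give 3 days of culture, a multiplicity of infection of 400 and 36 h between infection and 5-ASA, whereas the methods give 2 days, a multiplicity of 800 and 1 further day with or without 5-ASA directly after infection, so the length of exposure to virus and drug is uncertain. OSCAR was therefore supplied by a virus and not by the cells' own gene. No source used here says whether the 3 cultures of a group came from separate animals, so p-values measure the spread between these cultures.

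Cells take up most amino acids through carrier proteins in the plasma membrane. Some carriers work alone with sodium, some exchange an internal amino acid for an external one, and the light chains LAT1 (*Slc7a5*) and xCT (*Slc7a11*) reach the membrane only when bound to the heavy chain CD98hc (*Slc3a2*). Many of these genes are known targets of ATF4, a transcription factor whose protein rises when amino acids run short or the endoplasmic reticulum is stressed. ATF4 and a C/EBP partner bind a composite element with the core TGATGNAA. *Slc7a11* is also a known target of NRF2, which binds the antioxidant response element with the core TGACNNNGC. In cartilage, the imported amino acids feed the synthesis of a matrix that is rich in glycine and proline.

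Because ATF4 targets are prominent among these genes, both cores were searched on both strands of RefSeq promoter windows (build GRCm38.p6, 250 bases before to 50 bases after a gene's start). Windows were given for 6 of the 10 genes (*Slc7a11*, *Slc3a2*, *Slc7a1*, *Slc1a4*, *Slc38a2* and *Slc6a9*), and those of *Slc7a5*, *Slc7a3*, *Slc1a5* and *Slc38a1* were not used here. TGATGNAA was found in the windows of *Slc7a11* and *Slc1a4*, which are printed below with the matches in capitals to show where they lie. The *Slc7a11* window (chr3:50443564-50443863, minus strand) held 2 matches, in opposite orientations, that begin 66 and 47 bases before the start. The *Slc1a4* window (chr11:20332664-20332963, minus strand) held 1 match, which begins 4 bases before the start and runs across it.
Slc7a11: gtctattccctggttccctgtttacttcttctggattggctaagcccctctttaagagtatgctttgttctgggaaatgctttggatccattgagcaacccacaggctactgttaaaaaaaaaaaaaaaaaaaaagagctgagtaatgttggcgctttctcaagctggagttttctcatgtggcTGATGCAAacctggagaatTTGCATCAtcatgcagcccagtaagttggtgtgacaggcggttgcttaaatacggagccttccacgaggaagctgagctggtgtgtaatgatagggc
Slc1a4: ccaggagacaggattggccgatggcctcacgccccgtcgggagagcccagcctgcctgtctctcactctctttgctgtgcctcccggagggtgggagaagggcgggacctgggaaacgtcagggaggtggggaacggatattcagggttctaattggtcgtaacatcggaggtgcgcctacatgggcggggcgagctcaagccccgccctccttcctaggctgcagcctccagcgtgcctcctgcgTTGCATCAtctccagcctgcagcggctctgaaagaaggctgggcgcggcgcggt
Among all 32851 windows of this length, 1304 (3.97%) held TGATGNAA at least once and 23 (0.0700%) held it 2 or more times. TGACNNNGC was found once in 1 window of *Slc7a1*, once in the window of *Slc38a2* and once in each of 2 windows of *Slc6a9*. The *Slc7a11* window held 0 matches to it. Together the 6 genes had 9 windows, because *Slc7a1* and *Slc6a9* had more than 1 each. Of all windows, 4071 (12.4%) held TGACNNNGC. The matches describe the letters in these windows, and binding was not measured.

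Total counts ran from 19733448 to 28192740 per culture. *Oscar*, the gene supplied by the virus, was at 0.123 to 0.211 CPM (counts scaled to a common library size by TMM) in Control, at 6350 to 7110 CPM in Ad-OSCAR and at 2950 to 3720 CPM in Ad-OSCAR + 5-ASA. The groups thus matched their labels for the virus, whereas these levels do not check the 5-ASA label. *Oscar* RNA was 0.97 lower on the log2 scale (standard error 0.06) with 5-ASA, and its part in the results with 5-ASA was not tested. All 10 chondrocyte markers examined fell with OSCAR, and their summed level went from 16000 to 18200 TPM (RSEM's length-scaled transcript abundance) in Control to 1050 to 1200 TPM in Ad-OSCAR and 1220 to 1420 TPM in Ad-OSCAR + 5-ASA. Of markers of other cells, the 8 leukocyte genes summed to 7.68 to 10.8, 19.9 to 22.0 and 15.7 to 17.0 TPM in the same order with *Cd3e* at 0, the 4 endothelial genes to at most 1.37 TPM in any culture, the 4 osteoblast genes to 30.1 to 35.8, 5.72 to 7.60 and 11.0 to 12.5 TPM, the 4 osteoclast genes to 23.9 to 25.1, 22.0 to 22.5 and 19.8 to 21.1 TPM and the 5 fibroblast and synovial genes to 4920 to 5070, 4770 to 5310 and 5310 to 5460 TPM. Those last sums hold genes that moved in opposite directions with OSCAR. Of the fibroblast and synovial genes 2 rose and 3 fell, among them *Col3a1* (mean 4250 to 7010 CPM) and *Prg4* (247 to 897 CPM) upwards and *Col1a1* (9190 to 2890 CPM) and *Thy1* (14.1 to 2.43 CPM) downwards. Of the 3 osteoclast genes tested, *Ctsk* (log2 fold change 0.59) and *Calcr* (0.0744 to 0.724 CPM) rose and *Acp5* (12.6 to 8.22 CPM) fell. The part of these cells in the transporter results was not tested. In bulk RNA, fewer cells of a type and less RNA per cell cannot be told apart.

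Most of the 10 transporters were lower with OSCAR. With an adjusted p below 0.05 (edgeR quasi-likelihood test, Benjamini-Hochberg over 15362 genes, called edgeR adjusted p from here on), 7 were lower in Ad-OSCAR than in Control, 2 were higher (*Slc7a11* and *Slc38a1*) and 1, *Slc3a2*, did not pass. Of all genes tested, 65.0% passed in this comparison, 32.7% as higher and 32.2% as lower, so that 9 of 10 is to be read against a background in which most genes passed. For 9 of the 10 genes the CPM of Ad-OSCAR and Control did not overlap, beside 69.0% of all genes. The median log2 fold change of the 10 genes was -0.52, beside 0.02 for all genes tested. With counts scaled to the library total alone, the higher share of all called genes moved from 50.4% to 62.8%, the median of all genes from 0.02 to 0.15 and that of the 10 from -0.52 to -0.40. All 9 calls kept their direction under that scaling, and *Slc3a2* was also called as higher. Under the study's own limits (a log2 fold change beyond 1.5 and an adjusted p below 0.05), *Slc7a5* and *Slc1a5* passed, both lower. Those limits called 9.96% of all genes, 4.57% as higher and 5.39% as lower.

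In OSCAR-expressing cells, 9 of the 10 transporters were higher with 5-ASA and 0 were lower. *Slc38a1* did not pass. Of all genes tested, 17.8% passed in this comparison, 10.4% as higher and 7.38% as lower. The median log2 fold change of the 10 genes was 0.63, beside -0.00 for all genes. For 10 of 10 genes, every treated culture was above every untreated Ad-OSCAR culture in CPM, where 33.8% of all genes had groups that did not overlap in either direction. With the library total alone, the higher share of all called genes went from 58.5% to 29.5%, and 8 of the 10 transporters were still called as higher, without *Slc38a2*. Under the study's limits for 5-ASA (a fold above 1.5 and an unadjusted p below 0.05), which the study's text words as a comparison with Control and which are applied here to treated against untreated Ad-OSCAR cultures, 5 of the 10 were higher and 0 lower, beside 4.15% of all genes, 2.27% as higher and 1.87% as lower. This comparison and the one before it share the Ad-OSCAR cultures, so a culture that was high or low by chance moves both in opposite directions.

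**Figure D1:**
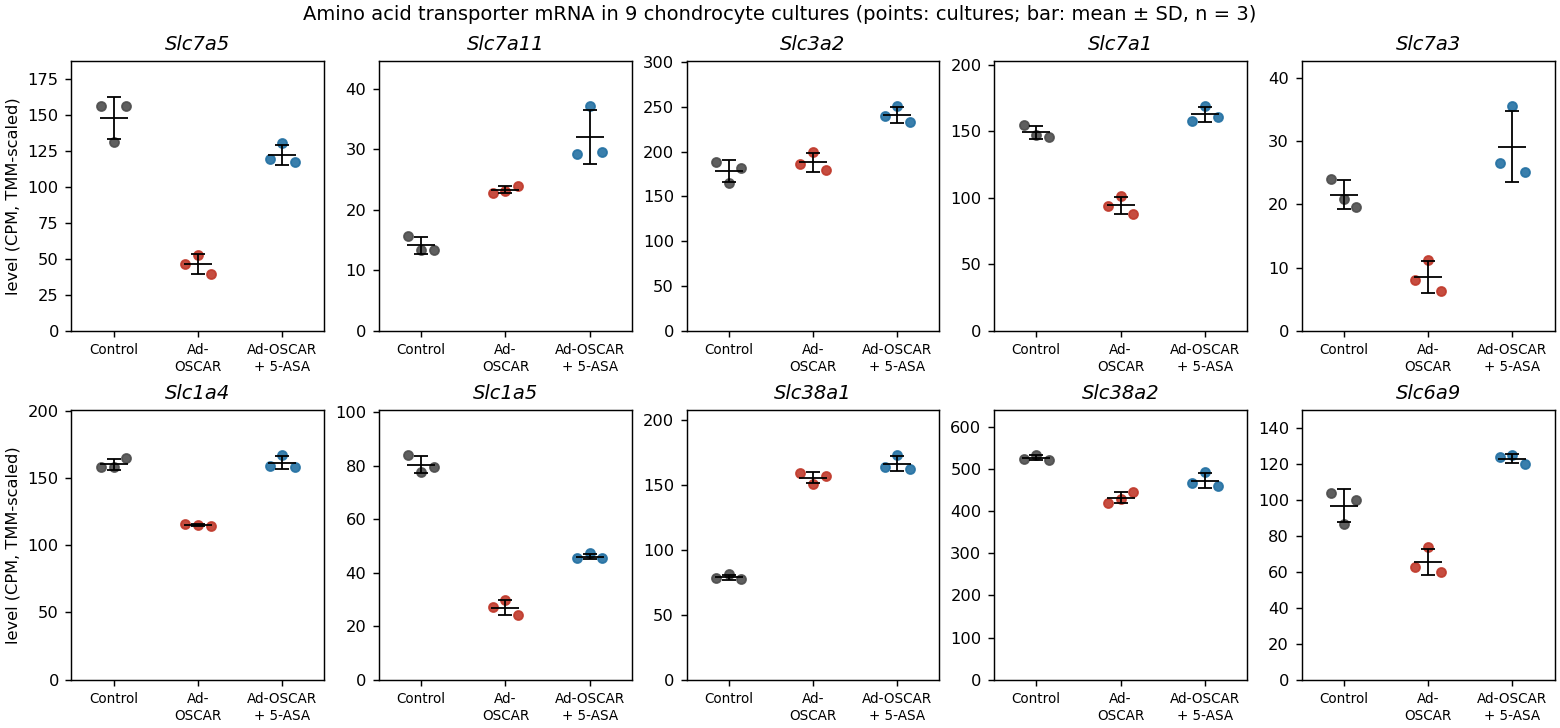
Level of each of the 10 transporters in CPM (vertical axes, linear from 0) in each of the 9 cultures, with points for cultures and bars for the mean and SD of 3. *Slc7a5*, *Slc7a1*, *Slc7a3*, *Slc1a4*, *Slc1a5*, *Slc38a2* and *Slc6a9* dip in Ad-OSCAR, *Slc38a1* is at means of 156 and 166 CPM in the groups with OSCAR and 78.8 in Control, and *Slc7a11* is lowest in Control and highest with 5-ASA.

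*Slc7a5* (ENSMUSG00000040010.10, GRCm38 chr8:121881150-121907694, minus strand) encodes LAT1, which exchanges leucine and other large neutral amino acids for glutamine. It was at 156, 131 and 156 CPM in the Control cultures, at 46.6, 52.7 and 39.2 CPM with Ad-OSCAR and at 119, 130 and 117 CPM with Ad-OSCAR + 5-ASA. The Ad-OSCAR cultures lay far below both other groups, and the treated cultures were all below the lowest Control culture. The level fell 3.19-fold with OSCAR (log2 fold change -1.68, standard error 0.09, edgeR adjusted p = 5.61e-12) and rose 2.64-fold with 5-ASA (1.40, 0.09, edgeR adjusted p = 1.19e-08). *Gm20388* overlaps this gene on the other strand and held 2420 to 3716 counts per culture, while the counts of *Slc7a5* were whole numbers in all 9 cultures. Whether the counting used strand is not given in the sources used here, so reads of the pair may not be told apart.

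*Slc7a11* (ENSMUSG00000027737.10, chr3:49892526-50443614, minus strand) encodes xCT, which imports cystine for glutathione in exchange for glutamate. It was at 15.7, 13.4 and 13.3 CPM in Control, at 22.8, 23.2 and 24.0 CPM with Ad-OSCAR and at 29.3, 37.2 and 29.6 CPM with Ad-OSCAR + 5-ASA. The groups formed steps that did not overlap, with 1 treated culture above the other 2. The rise with OSCAR was 1.65-fold (log2 fold change 0.72, standard error 0.09, edgeR adjusted p = 2.09e-06), and the level rose a further 1.38-fold with 5-ASA (0.46, 0.08, edgeR adjusted p = 0.000734). Of the 9 transporters that rose with 5-ASA, this was the only one also called as higher with OSCAR, apart from *Slc3a2* when only the library total was scaled. In the limma test of log2(TPM + 1) the difference with 5-ASA was 0.34 with an adjusted p of 0.0513. The counts of this gene were not whole in any of the 9 cultures, although the genes that overlap it held at most 1 count.

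*Slc3a2* (ENSMUSG00000010095.13, chr19:8706882-8723369, minus strand) encodes CD98hc, the heavy chain that both light chains above need. Its levels were 188, 165 and 182 CPM in Control, 186, 200 and 179 CPM with Ad-OSCAR, and 240, 251 and 233 CPM with Ad-OSCAR + 5-ASA. Control and Ad-OSCAR overlapped, and the treated cultures were above both. The log2 fold change was 0.08 with OSCAR (standard error 0.06, edgeR adjusted p = 0.211) and 0.21 with an adjusted p of 0.00219 when only the library total was scaled. With 5-ASA the level rose 1.28-fold (0.36, 0.06, edgeR adjusted p = 0.000152).

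The light chains therefore moved apart from each other and from their partner. Set against the TPM of *Slc3a2* in the same culture, *Slc7a5* was at 0.396 ± 0.0149 in Control, 0.112 ± 0.00658 in Ad-OSCAR and 0.242 ± 0.00453 in Ad-OSCAR + 5-ASA (SD, n = 3 each). The same ratio of *Slc7a11* was 0.0149 ± 0.000497, 0.0209 ± 0.00165 and 0.0233 ± 0.00255. The first ratio dipped and recovered in part, with no overlap between groups, whereas in the second the Ad-OSCAR and treated cultures overlapped and both were above Control. The TPM of *Slc7a5* over that of *Slc7a11* was 26.7 ± 1.92 in Control, 5.42 ± 0.739 in Ad-OSCAR and 10.5 ± 1.03 with 5-ASA. These ratios are descriptions of RNA levels, and no test was run on them.

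**Figure D2:**
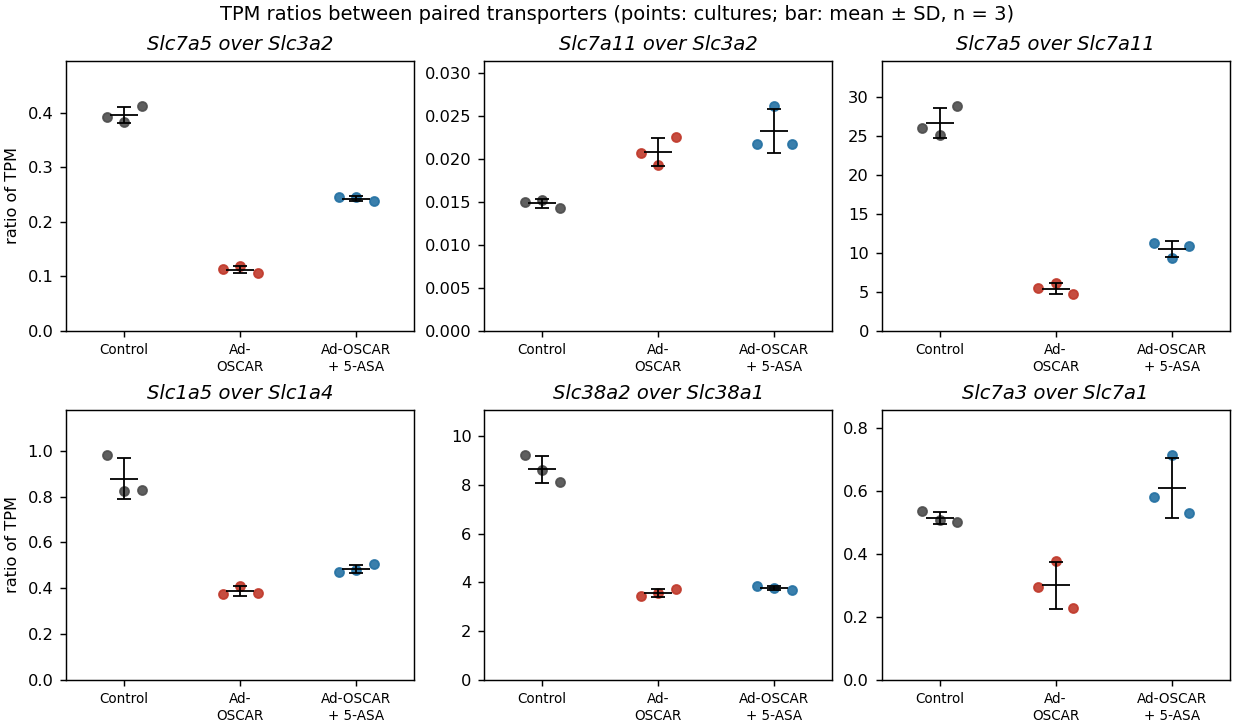
Ratios of TPM between pairs of transporters in each culture (vertical axes, linear from 0), with points for cultures and bars for the mean and SD of 3. *Slc7a5* over *Slc3a2* goes from 0.396 in Control to 0.112 in Ad-OSCAR and 0.242 with 5-ASA, and *Slc38a2* over *Slc38a1* stays at 3.57 and 3.77 in the groups with OSCAR.

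The cationic amino acid transporters carry arginine, lysine and ornithine. *Slc7a1* (ENSMUSG00000041313.14, chr5:148327410-148399904, minus strand), which encodes the widely expressed CAT1, was at 155, 147 and 146 CPM in Control, at 94.0, 101 and 88.0 CPM with Ad-OSCAR and at 158, 169 and 161 CPM with Ad-OSCAR + 5-ASA. The treated cultures were above all Control cultures, and the Ad-OSCAR cultures were below all of them. It fell 1.58-fold with OSCAR (log2 fold change -0.66, standard error 0.05, edgeR adjusted p = 3.08e-09) and rose 1.73-fold with 5-ASA (0.79, 0.05, edgeR adjusted p = 1.76e-08). *Slc7a3* (ENSMUSG00000031297.14, chrX:101079210-101086020, minus strand) encodes CAT3, which is known mainly from the brain and embryo. It was at 24.1, 20.9 and 19.6 CPM in Control, at 8.07, 11.2 and 6.26 CPM with Ad-OSCAR and at 26.6, 35.6 and 25.2 CPM with Ad-OSCAR + 5-ASA. Relative to its mean, this gene varied most within a group, with SDs of 2.52 CPM around a mean of 8.52 in Ad-OSCAR and 5.64 around 29.1 in the treated cultures. Even so the groups with and without 5-ASA did not overlap. It fell 2.55-fold with OSCAR (-1.35, 0.16, edgeR adjusted p = 6.98e-07) and rose 3.45-fold with 5-ASA (1.79, 0.15, edgeR adjusted p = 2.8e-07), the largest rise of the 10 genes. In TPM, *Slc7a3* stood at 0.515 ± 0.0190 of *Slc7a1* in Control, at 0.300 ± 0.0747 in Ad-OSCAR and at 0.609 ± 0.0950 in Ad-OSCAR + 5-ASA (SD, n = 3 each).

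The ASCT carriers exchange small neutral amino acids. *Slc1a4* (ENSMUSG00000020142.12, chr11:20302180-20332713, minus strand) encodes ASCT1, a carrier of alanine, serine, cysteine and threonine. It was at 158, 158 and 165 CPM in Control, at 116, 115 and 114 CPM with Ad-OSCAR and at 159, 167 and 158 CPM with Ad-OSCAR + 5-ASA. The Ad-OSCAR cultures formed a tight group below the rest, and the treated cultures lay among the Control cultures. The fall with OSCAR was 1.39-fold (log2 fold change -0.48, standard error 0.04, edgeR adjusted p = 1.89e-08) and the rise with 5-ASA 1.41-fold (0.49, 0.04, edgeR adjusted p = 3.91e-07). *Slc1a5* (ENSMUSG00000001918.17, chr7:16781340-16798274, plus strand) encodes ASCT2, a main route of glutamine entry. Its levels were 83.9, 77.7 and 79.3 CPM in Control, 27.2, 29.7 and 24.0 CPM with Ad-OSCAR, and 45.5, 47.2 and 45.3 CPM with Ad-OSCAR + 5-ASA. The treated cultures lay between the other groups and overlapped neither. It fell 2.98-fold with OSCAR (-1.58, 0.06, edgeR adjusted p = 1.42e-13) and rose 1.71-fold with 5-ASA (0.77, 0.06, edgeR adjusted p = 2e-07). The TPM of *Slc1a5* was 0.878 ± 0.0899 of that of *Slc1a4* in Control, 0.388 ± 0.0202 in Ad-OSCAR and 0.486 ± 0.0172 with 5-ASA (SD, n = 3 each).

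The system A carriers import glutamine and other small neutral amino acids with sodium, and their genes lie side by side on chromosome 15. *Slc38a1* (ENSMUSG00000023169.15, chr15:96571418-96642913, minus strand), which encodes SNAT1, was at 78.1, 81.1 and 77.2 CPM in Control, at 159, 151 and 157 CPM with Ad-OSCAR and at 164, 173 and 162 CPM with Ad-OSCAR + 5-ASA. Both groups with OSCAR were far above Control. The rise with OSCAR was 1.97-fold (log2 fold change 0.98, standard error 0.05, edgeR adjusted p = 1.82e-12), and with 5-ASA the log2 fold change was 0.09 (0.05, edgeR adjusted p = 0.167). In the limma test of TPM that last difference was -0.04, so its direction depends on the scale. *Slc38a2* (ENSMUSG00000022462.7, chr15:96687392-96699730, minus strand) encodes SNAT2, the system A carrier best known for its rise when amino acids are withdrawn. It was at 524, 533 and 522 CPM in Control, at 420, 430 and 446 CPM with Ad-OSCAR and at 467, 492 and 459 CPM with Ad-OSCAR + 5-ASA. The groups did not overlap, but the gaps were small. It fell 1.22-fold with OSCAR (-0.28, 0.04, edgeR adjusted p = 1.12e-05). With 5-ASA it was 1.09-fold higher (0.13, 0.04, edgeR adjusted p = 0.0427), a call that was lost with the replicate number as a block (adjusted p = 0.0586). It was also lost with the library total alone (0.06, adjusted p = 0.36) and in limma on TPM (0.03, adjusted p = 0.637). The TPM ratio of *Slc38a2* to *Slc38a1* was 8.64 ± 0.557 in Control, 3.57 ± 0.160 in Ad-OSCAR and 3.77 ± 0.0823 with 5-ASA (SD, n = 3 each).

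*Slc6a9* (ENSMUSG00000028542.17, chr4:117834506-117875198, plus strand) encodes GLYT1, a carrier that takes up glycine with sodium and chloride. Its levels were 104, 86.5 and 100 CPM in Control, 62.6, 74.0 and 60.0 CPM with Ad-OSCAR, and 124, 125 and 120 CPM with Ad-OSCAR + 5-ASA. All treated cultures were above all Control cultures, and all Ad-OSCAR cultures were below them. It fell 1.48-fold with OSCAR (log2 fold change -0.57, standard error 0.07, edgeR adjusted p = 2.19e-06) and rose 1.88-fold with 5-ASA (0.91, 0.07, edgeR adjusted p = 1.31e-07). *Ccdc24* (50.93 to 145.87 counts) and *B4galt2* (683.29 to 896.98 counts) overlap it on the other strand, and the counts of *Slc6a9* were not whole in any of the 9 cultures.

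**Figure D3:**
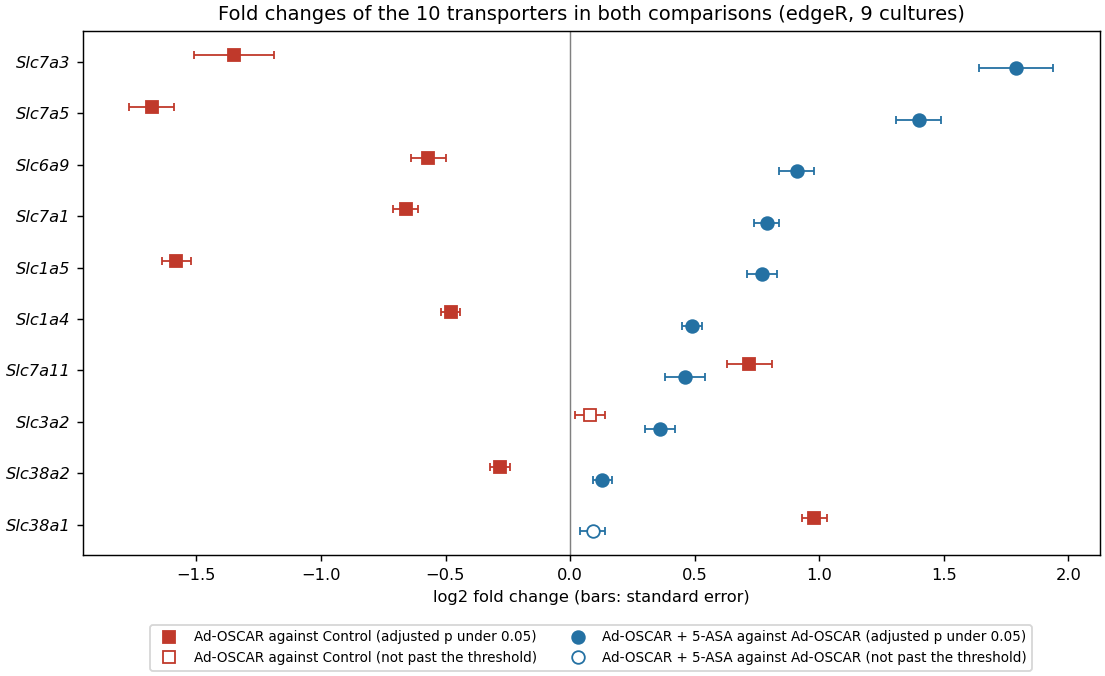
Log2 fold changes with their standard errors (horizontal axis) for the 10 transporters with OSCAR (squares, Ad-OSCAR against Control) and with 5-ASA (circles, Ad-OSCAR + 5-ASA against Ad-OSCAR), in order of the change with 5-ASA. Open symbols did not pass an adjusted p of 0.05. Squares lie left of 0 for 7 genes, and all circles lie right of 0, from 0.09 for *Slc38a1* to 1.79 for *Slc7a3*.

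Against Control, the treated cultures had 6 transporters higher, 3 lower and 1 that did not pass, with 63.2% of all genes passing (31.4% higher, 31.8% lower). For 9 of the 10 genes these groups did not overlap in CPM, beside 66.6% of all genes. Under the study's limits for 5-ASA, 2 were higher and 1 lower, beside 29.9% of all genes (14.6% higher, 15.3% lower). The median log2 fold change was 0.23, beside 0.01 for all genes. The values with 5-ASA thus ended at different places relative to Control. *Slc7a11* was 2.27-fold higher (log2 fold change 1.18, standard error 0.09, edgeR adjusted p = 2.22e-09) and *Slc38a1* 2.11-fold higher (1.08, 0.05, edgeR adjusted p = 5.79e-13). Smaller excesses were found for *Slc3a2* (0.44, 0.06, edgeR adjusted p = 1.67e-06), *Slc6a9* (0.34, 0.07, edgeR adjusted p = 0.000438), *Slc7a3* (0.44, 0.14, edgeR adjusted p = 0.0109) and *Slc7a1* (0.12, 0.05, edgeR adjusted p = 0.0466). The calls of *Slc7a3* and *Slc7a1* were not stable. *Slc7a3* had an adjusted p of 0.12 in DESeq2 and a log2 fold change of 0.27 with an adjusted p of 0.0912 without treated culture 2, while *Slc7a1* passed in 9 of 17 alternatives. *Slc1a5* stayed 1.74-fold lower than Control (-0.80, 0.06, edgeR adjusted p = 1.37e-09). *Slc7a5* stayed 1.21-fold lower (-0.27, 0.08, edgeR adjusted p = 0.00746), and so did *Slc38a2*, by 1.11-fold (-0.16, 0.04, edgeR adjusted p = 0.00387; 0.0521 with the library total alone). For *Slc1a4* the log2 fold change from Control was 0.01 (0.04, edgeR adjusted p = 0.843).

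Levels of different genes were set side by side in TPM. In Control, *Slc3a2* (195 ± 12.7 TPM) and *Slc38a2* (191 ± 3.32 TPM) led with overlapping values, and *Slc7a5* (77.2 ± 6.80 TPM) and *Slc1a4* (70.6 ± 1.43 TPM) followed, also overlapping. *Slc1a5* (62.0 ± 5.61 TPM) and *Slc6a9* (57.0 ± 3.99 TPM) overlapped next, and then came *Slc7a1* (35.7 ± 0.951 TPM), *Slc38a1* (22.2 ± 1.43 TPM), *Slc7a3* (18.4 ± 1.15 TPM) and *Slc7a11* (2.89 ± 0.174 TPM), each below the one before it in all cultures. The order changed with OSCAR, mostly by the fall of *Slc7a5* and *Slc1a5* and the rise of *Slc38a1*. In Ad-OSCAR, *Slc3a2* (211 ± 8.95 TPM) was above *Slc38a2* (160 ± 6.04 TPM) in all cultures, *Slc38a1* (44.9 ± 0.919 TPM) moved to the fourth place behind *Slc1a4* (51.7 ± 0.914 TPM), and *Slc6a9* was at 38.7 ± 3.08 TPM. Below these, *Slc7a5* (23.7 ± 2.39 TPM) overlapped *Slc7a1* (23.2 ± 0.993 TPM), and *Slc1a5* (20.1 ± 0.690 TPM), *Slc7a3* (6.99 ± 2.02 TPM) and *Slc7a11* (4.39 ± 0.162 TPM) came last. With 5-ASA, *Slc6a9* (70.8 ± 2.33 TPM) followed *Slc3a2* (251 ± 7.13 TPM) and *Slc38a2* (164 ± 5.01 TPM) and overlapped *Slc1a4* (68.1 ± 1.87 TPM), and *Slc7a5* (60.9 ± 2.46 TPM) was again above *Slc38a1* (43.5 ± 1.87 TPM). *Slc7a11* was the lowest of the 10 in every group. Summed over the 10 genes, the level was 732 ± 24.9 TPM in Control, 584 ± 11.6 TPM in Ad-OSCAR and 757 ± 21.4 TPM in Ad-OSCAR + 5-ASA (SD, n = 3 each), with *Slc3a2* and *Slc38a2* as 26.6% and 26.1% of the sum in Control.

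Cultures of the same group also differed in a shared way. Treated culture 2 was the highest of its group in CPM for 10 of 10 transporters, where it was the highest for 37.4% of all genes tested, and it had the lowest *Oscar* level of the treated cultures (2950 CPM, beside 3530 and 3720 CPM). Among the Ad-OSCAR cultures, culture 2 was the highest for 6 and culture 3 the lowest for 7 of the 10 (35.4% and 36.6% of all genes). Here culture 2 had the highest *Oscar* level of its group (7110 CPM, beside 6350 and 6530 CPM). In Control, culture 1 was the highest for 7 and the lowest for 0 of the 10 (31.4% and 28.4% of all genes). A link between *Oscar* and transporter levels within groups was not tested. Without treated culture 2, 8 transporters were still higher with 5-ASA (*Slc38a2* was lost), and the median log2 fold change over all 10 was 0.61.

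The other amino acid transporters were split in direction with OSCAR. Of a list of 45, 27 passed the filter on low counts. With OSCAR, 10 of the 27 were higher, 12 were lower and 5 did not pass (median log2 fold change -0.01), where 32.7% of all genes were higher and 32.2% lower. With 5-ASA, 2 were higher, 2 lower and 23 did not pass (median -0.01), which is near the 10.4% higher and 7.38% lower of all genes. The cationic transporter *Slc7a2*, which is the inducible carrier of arginine, rose from 423, 429 and 418 CPM in Control to 2630, 2490 and 2680 CPM in Ad-OSCAR (log2 fold change 2.62, standard error 0.04, edgeR adjusted p = 6.84e-19), opposite to *Slc7a1* and *Slc7a3*. It was at 2340, 2420 and 2470 CPM with 5-ASA (-0.11, 0.04, edgeR adjusted p = 0.0614). *Slc6a14*, a carrier of neutral and cationic amino acids, went from a mean of 0.466 CPM to 6.15 CPM, a log2 fold change of 3.75 (standard error 0.21), and *Slc6a15*, a carrier of branched-chain amino acids and proline, rose by 1.69 (0.22). The largest falls were those of *Slc38a3*, a glutamine carrier (-3.78, 0.27), *Slc1a1*, a glutamate carrier (-3.66, 0.26), and *Slc38a4*, a system A carrier (-2.78, 0.13). These genes were low, with means of 5.47, 4.4 and 14.8 CPM in Control and 0.383, 0.341 and 2.17 CPM in Ad-OSCAR. The smallest falls among the alternatives were -1.82, -1.49 and -2.07. Of the few that passed with 5-ASA, the glutamate carriers *Slc1a6* (0.88, 0.21, edgeR adjusted p = 0.00728) and *Slc1a3* (0.75, 0.08, edgeR adjusted p = 3.51e-06) rose. *Slc16a10*, a carrier of aromatic amino acids, fell (-0.50, 0.12, edgeR adjusted p = 0.00582), as did the lysosomal carrier *Slc36a1* (-0.18, 0.06, edgeR adjusted p = 0.0429), whose call was lost with the replicate number as a block (adjusted p = 0.0628).

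Genes of the amino acid response were mostly lower with OSCAR and mostly higher with 5-ASA. The list holds ATF4, kinases that act upstream of it and known ATF4 targets that are not transporters. All 30 were tested. With OSCAR, 22 were lower, 7 higher and 1 did not pass (median log2 fold change -0.55), beside 32.2% lower and 32.7% higher among all genes. With 5-ASA, 24 were higher, 1 lower and 5 did not pass (median 0.54), beside 10.4% higher and 7.38% lower among all genes. *Atf4* itself was at 385, 379 and 369 CPM in Control, at 319, 334 and 294 CPM in Ad-OSCAR and at 445, 461 and 408 CPM in Ad-OSCAR + 5-ASA. It fell by 0.26 on the log2 scale with OSCAR (standard error 0.05, edgeR adjusted p = 0.00031) and rose by 0.47 with 5-ASA (0.05, edgeR adjusted p = 5.23e-06). ATF4 is controlled largely at translation, which was not measured. The largest falls with OSCAR were of mitochondrial and serine synthesis enzymes: *Aldh1l2*, of folate metabolism (-2.93, 0.07), *Pycr1*, which makes proline (-2.73, 0.07), and *Psat1*, which makes serine (-1.99, 0.09). *Psat1* was at 232, 213 and 216 CPM in Control, at 53.5, 65.0 and 47.9 CPM in Ad-OSCAR and at 145, 175 and 137 CPM with 5-ASA, in 3 groups that did not overlap. With 5-ASA the largest rises were of *Cth*, which makes cysteine (1.48, 0.09), *Psat1* (1.46, 0.09) and *Phgdh*, the first enzyme of serine synthesis (1.12, 0.08). The exceptions with OSCAR included the transcription factors *Atf3* (1.71, 0.10) and *Cebpb* (0.83, 0.15) and the secreted glycoprotein *Stc2* (0.49, 0.06), which were higher. *Atf3* was also the 1 gene of the list that fell with 5-ASA (-0.85, 0.09, edgeR adjusted p = 2.57e-06). *Aldh1l2* overlaps *D10Wsu102e* and *Cebpb* overlaps *Tmem189*, in both cases on the other strand and with counts that were not whole in 9 of 9 cultures.

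Enzymes that use the imported amino acids moved in both directions with OSCAR. Of 21 listed, 19 were tested, and with OSCAR 7 were higher, 8 lower and 4 did not pass (median log2 fold change -0.02), beside 32.7% higher and 32.2% lower among all genes. *Nos2*, which makes nitric oxide from arginine, went from 186, 204 and 213 CPM in Control to 3560, 3660 and 3580 CPM in Ad-OSCAR (4.16, standard error 0.06, edgeR adjusted p = 4.44e-20) and was at 3810, 3640 and 4030 CPM with 5-ASA (0.09, 0.05, edgeR adjusted p = 0.226). *Arg2*, a mitochondrial arginase, rose by 3.64 (0.12), from 1.73 to 21.8 CPM on average, and overlaps *Vti1b* on the other strand. *Gclc*, which catalyses the first step of glutathione synthesis from cysteine, rose with OSCAR (1.28, 0.06) and fell with 5-ASA (-0.72, 0.05, edgeR adjusted p = 5.96e-08), while the cystine carrier *Slc7a11* rose in both. *Bcat1*, which transaminates leucine, fell with OSCAR (-1.41, 0.07) and rose with 5-ASA (0.81, 0.07, edgeR adjusted p = 2.34e-07), as *Slc7a5* did. *Gcat* (-1.68, 0.14) and *Shmt1* (-1.25, 0.15), enzymes of glycine metabolism, were the other large falls with OSCAR. Another gene entry of the same symbol overlaps *Gcat*, and *Smcr8* overlaps *Shmt1* on the other strand, so their counts may be split. With 5-ASA, 1 of the 19 was higher, 4 were lower and 14 did not pass, beside 10.4% higher and 7.38% lower among all genes, and *Arg2* (-0.40, 0.08) and *Gclm*, the partner subunit of *Gclc* (-0.30, 0.06), were among the 4.

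**Figure D4:**
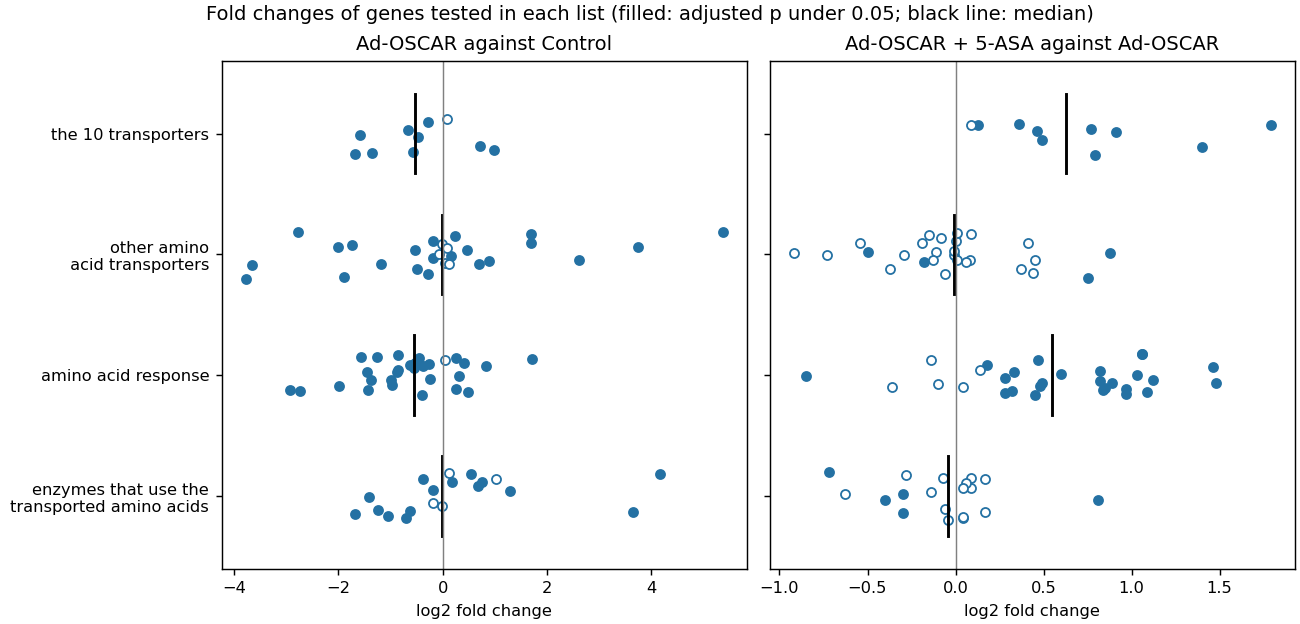
Log2 fold changes (horizontal axes) of the 10 transporters, 27 other amino acid transporters, 30 amino acid response genes and 19 enzymes, with OSCAR (left) and with 5-ASA (right). Filled points passed an adjusted p of 0.05 and black lines are medians, which are -0.52, -0.01, -0.55 and -0.02 with OSCAR and 0.63, -0.01, 0.54 and -0.04 with 5-ASA.

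Likeness over the 9 cultures was measured as the root mean square difference of log2 CPM centred on each gene's mean, among 9316 genes with at least 10 CPM on average. With 1 gene outside the 10 kept for each transporter, the 3 closest pairs were *Pygl* to *Slc38a2* (0.0228), *Lrig2* to *Slc38a1* (0.0276) and *Cdkn2b* to *Slc3a2* (0.0409). Between members, *Slc7a1* was closest to *Slc6a9* (0.115) and then to *Slc1a4* (0.134), and *Slc7a5* and *Slc38a1* were farthest apart (1.10). The 9 cultures come from 3 groups, so these values mostly describe the group means.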

How the data were processed

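Poly(A) RNA of 9 cultures was sequenced in stranded libraries. The authors trimmed reads with BBDuk, aligned them to GRCm38 with STAR 2.7.1a and made estimated counts and TPM per gene with RSEM 1.3.1 (another RSEM version is named in the reporting summary), and the strand setting is not stated. Per the file headers, the deposited expected counts are not scaled, and the deposited TPM are scaled for length and library. Deposited effective lengths were used only for an alternative to the TPM ratios (CPM per effective length), and deposited FPKM were not used. Of 55471 genes, 55230 matched GENCODE M21, which gave coordinates.

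Expected counts were rounded and tested with edgeR 4.0.16 in R 4.3.3 (TMM, filterByExpr, quasi-likelihood F test, group as the only factor, all 9 cultures in one fit). The filter left 15362 genes, with 6 residual degrees of freedom and a biological coefficient of variation of 5.11%. Standard errors were derived from each log2 fold change and the root of its F statistic. TPM was tested with limma 3.58.1 as log2(TPM + 1). DESeq2 1.42.0, other scalings and filters, a replicate block and leaving out each culture were alternatives. Replicates differed by more than sampling noise (chi-square per degree of freedom 4.15 to 7.96). The tests were also run on simulated counts with known changes, scored for Ad-OSCAR against Control only. The smallest changes called here lie below the sizes simulated, so that run does not cover them.

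The 10 genes, the lists and the tests were chosen with earlier results of these data known. Genes were named by rule from the lists of other transporters, amino acid response genes and enzymes. These were up to 3 genes per list with the largest change in each direction, plus *Atf4*. They were taken from those called with a mean of at least 1 CPM. Marker genes were named outside this rule.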

Additional observations from a re-analysis of the deposited data

How the results depend on the processing

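Of the 10 transporters, 9 were called with OSCAR in all alternatives except scaling by the library total (10). With 5-ASA 7 to 9 were called and against Control 7 to 9. Leaving out 1 culture gave 9 with OSCAR, 8 to 9 with 5-ASA and 7 to 9 against Control. Blocking on replicate number gave 9, 8 and 9 calls, and the call of *Slc38a2* with 5-ASA was the 1 lost (adjusted p = 0.0586). Same-numbered cultures did not deviate together (correlations -0.0724 to 0.0402), so the numbers were not taken as pairs. Under the study's limits on fold, 2, 5 and 3 transporters were called. *Slc16a10*, treated against Control, changed sign in limma on TPM (-0.18, beside 0.38), and the cause was not tested. No call of the 10 transporters changed direction. *Slc38a2* with 5-ASA was called in 6 of 17 alternatives. Depth limits the low genes most: *Slc7a3* had 172 to 976 counts and *Slc7a11* 251.07 to 1019.45 per culture.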
